A study of Homo sapiens with 18 samples.

Results

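OGDHL, OGDH, DHTKD1, DLST and DLD encode the subunits from which the 2-oxoglutarate and 2-oxoadipate dehydrogenase complexes of the mitochondrial matrix are built. They were taken from the deposited expression table by gene symbol. Each symbol named 1 row, giving 5 of 37347 rows, which carry 26900 distinct symbols in all. The study sequenced mRNA from 16D CRPC, an LNCaP-derived castration-resistant prostate cancer line, after genetic disruption of OGDHL. Cells received a lentivirus with Cas9 and either a control guide (sgAAVS) or 1 of 2 guides against OGDHL, called guide 1 and guide 2 here. Each line was then grown either with DMSO, the vehicle, or with the prostate cancer drug enzalutamide at 10 µM, over 6 weeks. The 6 combinations of guide and treatment had 3 libraries each, so by the labels all 18 libraries came from the same line carrying Cas9, and controls differed only in the guide. The labels do not say whether the edited cells were pools or clones. The labels do not tie the 3 libraries of a group to separate cultures. The p-values therefore speak only of the scatter among these libraries, which may be technical.

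The 2-oxoglutarate dehydrogenase complex converts 2-oxoglutarate to succinyl-CoA in the TCA cycle. Its E1 enzyme, OGDH or the related OGDHL, decarboxylates the 2-oxoacid with thiamine diphosphate. E2, encoded by DLST, passes the succinyl group to CoA on a lipoyl arm, and E3, encoded by DLD, reoxidises that arm with NAD+. DHTKD1 is an alternative E1 that acts on 2-oxoadipate in lysine, hydroxylysine and tryptophan degradation and also works with DLST and DLD. DLD also serves the pyruvate and branched-chain 2-oxoacid dehydrogenases and the glycine cleavage system, while MRPS36 (KGD4) is an adapter that tethers E3 to the E2 core.

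Because the E1 genes are related and DLST has a processed pseudogene, DLSTP1, their transcripts were compared first, to show whether the 50-base reads could tell the pairs apart. All coordinates are those of GRCh38 with GENCODE release 29. OGDHL (ENSG00000197444.9) lies on the minus strand of chromosome 10, from 49734643 to 49762379, with 23 exons in the transcript used. OGDH (ENSG00000105953.14) lies on the plus strand of chromosome 7, from 44606572 to 44709066, with 24 exons. The coding sequences of OGDHL and OGDH were 77.4% identical when aligned. The most alike aligned stretch of 90 coding bases lies in exon 17 of OGDHL, chr10:49739733-49739822, and in exon 18 of OGDH, chr7:44697621-44697710. It is shown because it is where a read would be hardest to assign, and capitals mark the 6 positions at which the genes differ.
OGDHL: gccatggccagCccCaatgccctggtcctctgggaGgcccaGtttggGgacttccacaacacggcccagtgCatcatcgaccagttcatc
OGDH: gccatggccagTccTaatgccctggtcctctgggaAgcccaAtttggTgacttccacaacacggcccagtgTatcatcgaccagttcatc
No 50-base stretch of the OGDHL transcript (0 of 3655) or of the OGDH transcript (0 of 3260) occurred in a transcript of another gene. Reads of that length therefore had at least 1 mismatch with every other annotated gene.

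DHTKD1 (ENSG00000181192.11) lies on the plus strand of chromosome 10, from 12068972 to 12123225, with 17 exons, and 74 of its 5110 stretches of 50 bases (1.45%) also occurred in other genes. DLD (ENSG00000091140.13) lies on the plus strand of chromosome 7, from 107890970 to 107931730, with 14 exons, and 0 of its 3706 stretches were shared. DLST (ENSG00000119689.14) lies on the plus strand of chromosome 14, from 74881891 to 74903745, with 15 exons. Its coding sequence was 96.6% identical to DLSTP1, which lies on the minus strand of chromosome 1 from 75743423 to 75744776. The aligned 90 bases in which this pair differs most, in exon 7 of DLST at chr14:74891056-74891145 and at chr1:75744357-75744446 for the pseudogene, hold only 5 mismatches, in capitals.
DLST: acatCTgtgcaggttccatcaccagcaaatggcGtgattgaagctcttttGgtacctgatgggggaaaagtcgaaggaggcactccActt
DLSTP1: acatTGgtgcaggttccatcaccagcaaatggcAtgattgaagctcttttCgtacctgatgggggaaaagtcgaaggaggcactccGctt
DLST and DLSTP1 shared 207 stretches of 50 bases, 7.42% of those in DLST and 15.9% of those in DLSTP1. No source used here states how such reads were assigned, so DLST is uncertain by the reads that could be split. DLSTP1 was listed at 7.90 to 18.9 TPM over the 18 libraries, between 0.722 and 0.969 of the DLST level in the same library.

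The deposited values are TPM, which are scaled by transcript length and sum to the same total in each library, so levels of different genes can be compared but depth is unknown. Mitochondrially encoded (MT-) rows took 50.1% to 73.8% of the TPM of a library. Their share was 73.8%, 69.9% and 57.2% in the guide 1 libraries in vehicle, against 53.6% to 55.4% in the vehicle controls. For that reason each level is given as deposited and also as rescaled TPM, meaning with the MT- rows removed and all other rows brought back to that total. The 3 vehicle libraries that carry the label guide 2 were unlike all others. Their correlations with the other 15 were 0.930 to 0.958, against 0.968 to 0.998 among those 15, and 1407 to 1630 of their rows were at 0, against 3042 to 4498. Whether these libraries are mislabelled or came from another stock of cells was not tested, and this touches every value given under that label. The luminal prostate marker KLK3 had a median of 294 TPM over the 18 libraries, while none of the 16 markers of basal, neuroendocrine, stromal, blood or endothelial cells had a median of at least 1 TPM. Changes are log2 differences of TPM + 1 from limma over all 18 libraries, called at an adjusted p under 0.05 over all genes with at least 1 TPM in at least 3 libraries. That was 13416 genes as deposited and 16067 after removal of MT- rows, with all 5 subunit genes among them on both scales. Adding 1 shrinks a log2 change more at lower levels, so the changes of OGDHL are shrunk more than those of the more abundant subunit genes. Fold differences are ratios of group means without the added 1. The values and calls of groups that use the libraries labelled guide 2 in vehicle are given under that label.

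OGDHL was the least abundant of the 5 genes in every group. In the vehicle controls it was at 2.17, 2.17 and 2.11 TPM, and in the enzalutamide controls at 3.79, 3.13 and 3.20 TPM. In guide 1 cells OGDHL was at 0.505, 0.689 and 1.35 TPM with vehicle, and enzalutamide gave 1.06, 1.11 and 0.909. Guide 2 libraries held 1.77, 1.63 and 1.80 TPM in enzalutamide, and those labelled guide 2 in vehicle held 3.08, 3.36 and 2.64 TPM. All 6 guide 1 libraries and the 3 guide 2 libraries in enzalutamide were therefore lower than every control library, and the 3 labelled guide 2 in vehicle were higher than every vehicle control. Groups did not overlap in this way for 43.5% of all genes with guide 1 in vehicle, 30.7% with guide 1 in enzalutamide, 18.6% with guide 2 in enzalutamide and 78.0% in the libraries labelled guide 2 in vehicle. The order of the group means ran from the enzalutamide controls (3.37 ± 0.363 TPM, SD, n = 3) through the libraries labelled guide 2 in vehicle (3.03 ± 0.364), the vehicle controls (2.15 ± 0.0357), guide 2 in enzalutamide (1.74 ± 0.0908) and guide 1 in enzalutamide (1.02 ± 0.104) to guide 1 in vehicle (0.849 ± 0.445). The first pair of neighbours in that order and the last pair overlapped; the other neighbours did not. No group lost the transcript, and in bulk RNA a lower level in every cell and loss from some cells cannot be told apart. A lower or retained transcript also does not measure how many alleles were cut.

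**Figure D1:**
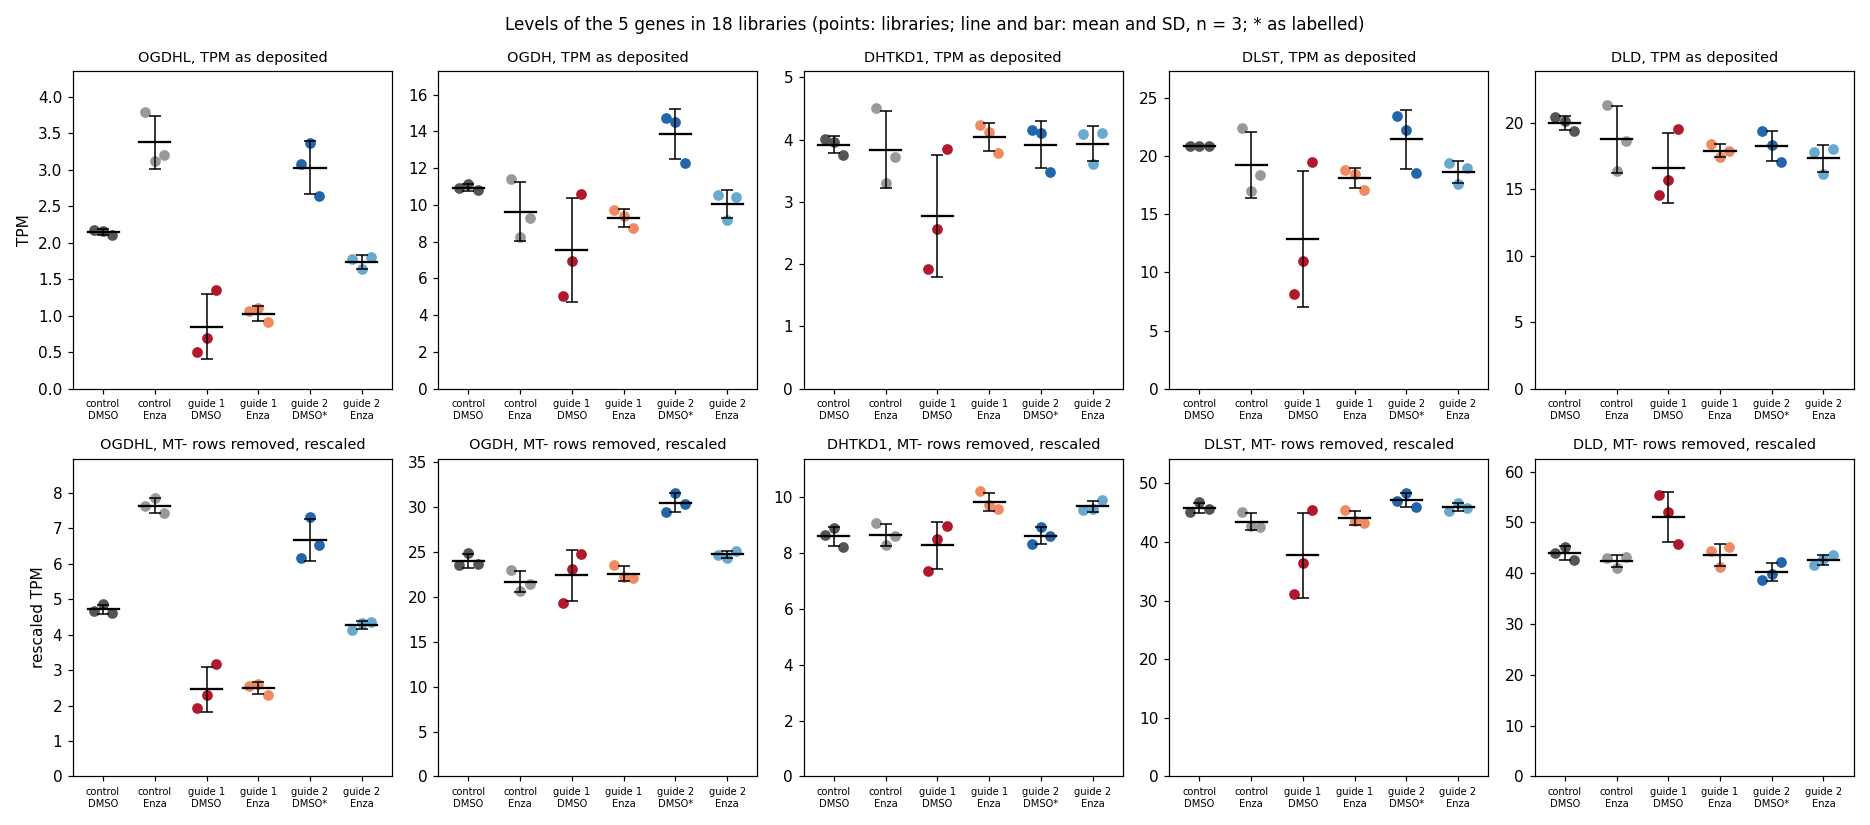
Levels of OGDHL, OGDH, DHTKD1, DLST and DLD in TPM as deposited (first row) and in rescaled TPM without MT- rows (second row), by group of guide and treatment. Points are libraries and lines with bars are the mean and SD of 3. OGDHL is lower in all 9 points of guide 1 and of guide 2 in enzalutamide than in the controls of the same treatment. As a share of the mean, the SD of every gene shown falls in guide 1 in vehicle once the MT- rows are removed.

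On the rescaled values the order of the OGDHL means was kept. The vehicle controls were at 4.68, 4.86 and 4.62 rescaled TPM and the enzalutamide controls at 7.63, 7.85 and 7.43. Guide 1 was at 1.93, 2.29 and 3.16 in vehicle and at 2.56, 2.62 and 2.30 in enzalutamide. On this scale only the 2 guide 1 groups overlapped as neighbours. The highest group mean of OGDHL was 3.98 times its lowest as deposited and 3.11 times after rescaling. The same ratio was 1.84 and 1.40 for OGDH, 1.46 and 1.19 for DHTKD1, 1.67 and 1.25 for DLST, and 1.21 and 1.27 for DLD.

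With guide 1, OGDHL fell in both treatments, and in enzalutamide it was the only 1 of the 5 subunit genes called as deposited. In enzalutamide its mean was 3.29-fold lower than in the controls, a log2 change of -1.11 (SE 0.123, 95% interval -1.37 to -0.85, limma adjusted p = 7.4e-06), where 7.07% of all tested genes were called. After rescaling the change was -1.31 (limma adjusted p = 9.0e-08), where 30.6% of genes were called. In vehicle OGDHL was 2.53-fold lower with guide 1, a log2 change of -0.79 (95% interval -1.05 to -0.54, limma adjusted p = 0.0081), and the background there was high: 57.8% of all genes were called, with a median change of -0.32. After rescaling, when the median of all genes was 0.02 and 32.2% were called, the OGDHL change in vehicle was -0.74 (limma adjusted p = 0.0014). As deposited, the vehicle call was lost without control replicate 1 (-0.79, adjusted p = 0.051) or guide 1 replicate 2 (-0.74, adjusted p = 0.059) and in a fit of only the groups compared (-0.79, adjusted p = 0.15). It was -0.42 with guide 1 replicate 3, the library of lowest MT- share, as the only one of its group; such a group of 1 library has no spread of its own, so values from that fit are given without a p. After rescaling it was called in all 18 fits that left out 1 library, and with that single library it was -0.46.

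In enzalutamide OGDHL also fell with guide 2, and by less than with guide 1. Its mean was 1.94-fold lower than in the enzalutamide controls, a log2 change of -0.67 (limma adjusted p = 0.0076), where 1.25% of all genes were called. After rescaling this was -0.71 (limma adjusted p = 1.3e-04, with 14.0% of genes called). The direct difference between the guides in enzalutamide was 0.43 as deposited, guide 2 being 1.69-fold higher (limma adjusted p = 0.026, 12.9% of genes called), and 0.60 after rescaling (limma adjusted p = 1.4e-04, 41.0% called). As deposited the call against the controls was lost without guide 2 replicate 2 (-0.65, adjusted p = 0.051), and the call between the guides was lost without any 1 of the 6 libraries compared (0.39 to 0.46, adjusted p = 0.053 to 0.11). After rescaling both were called in all 18 such fits. The libraries labelled guide 2 in vehicle went against their label: OGDHL was 1.41-fold higher than in the controls (log2 0.35, limma adjusted p = 0.020), where 59.0% of all genes were called and the median change was 0.18. That call was lost without vehicle control replicate 3 (0.34, adjusted p = 0.053), or without replicate 1 (0.34, adjusted p = 0.057) or replicate 2 (0.29, adjusted p = 0.092) of those libraries. It was also lost when libraries were scaled by the median of ratios (0.099) or quantile normalized (0.078), and when 0.1 was added to TPM in place of 1 (0.47); the adjusted p was 0.14, 0.20 and 0.074. After rescaling, this OGDHL change was 0.36 to 0.47 in the 18 fits that left out 1 library. All 18 called it (limma adjusted p at most 0.0061), on a scale where 74.9% of all genes were called.

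A ratio of OGDHL to OGDH within a library is free of the library's scaling; whether it goes with the MT- share was not tested. It was 0.199, 0.195 and 0.195 in the vehicle controls and 0.332, 0.380 and 0.346 in the enzalutamide controls. With guide 1 it was 0.0999, 0.0990 and 0.127 in vehicle and 0.109, 0.118 and 0.104 in enzalutamide, so that no guide 1 library reached any control library. Over both treatments the ratio was 2.41-fold lower with guide 1, in 6 of 6 libraries (log2 -1.27, exact two-sided permutation p = 0.005, adjusted p = 0.03 over 6 ratio tests), which is the smallest p that the 400 arrangements can give. Guide 2 in enzalutamide had ratios of 0.168, 0.178 and 0.173, also lower than every control. Those labelled guide 2 in vehicle had 0.209, 0.231 and 0.215, higher than every vehicle control. The 5 other ratio tests compared 3 libraries with 3, for which the smallest exact p is 0.1 (adjusted p = 0.12). Guide 2 reached that limit in both treatments, with log2 differences of -1.03 in enzalutamide and 0.15 in vehicle as labelled.

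**Figure D2:**
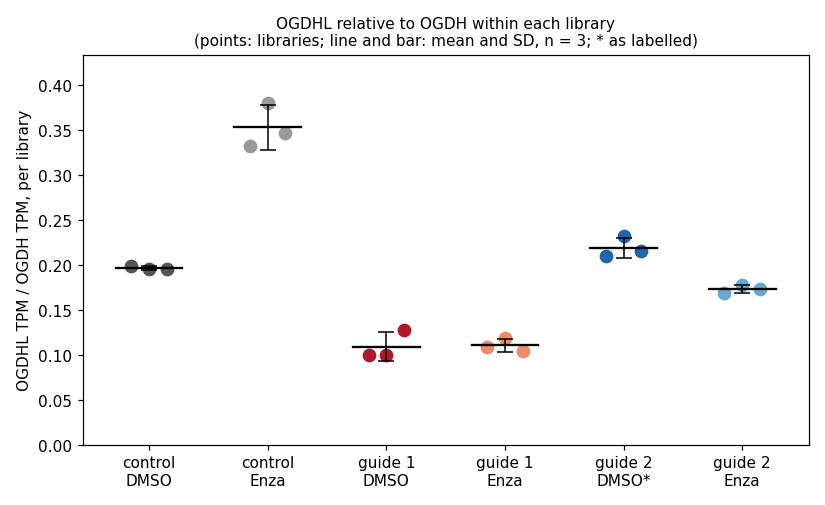
OGDHL TPM divided by OGDH TPM within each library, by group; points are libraries, lines with bars the mean and SD of 3. The 6 guide 1 libraries sit between 0.0990 and 0.127, the vehicle controls at 0.195 to 0.199 and the enzalutamide controls at 0.332 to 0.380.

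In the control cells enzalutamide raised OGDHL, and none of the other 4 subunit genes was called. The adapter MRPS36 was not called as deposited (-0.26). After rescaling it was called lower (-0.24), where 47.9% of all genes were called. The OGDHL mean was 1.57-fold higher than in vehicle (log2 0.47, 95% interval 0.21 to 0.73, limma adjusted p = 0.0097), where 20.8% of all genes were called, and 1.62-fold higher after rescaling (log2 0.59, limma adjusted p = 9.8e-05, 47.9% called). With a pseudocount of 0.1 in place of 1 the deposited values gave 0.62 (adjusted p = 0.052). The OGDHL to OGDH ratio was 1.79-fold higher, with no overlap between the 3 and 3 libraries (exact permutation p = 0.1, the smallest possible). With array weights the other 4 genes were called lower in that comparison, OGDH at -0.22, DLST at -0.18, DLD at -0.10 and DHTKD1 at -0.063. As a share of the summed TPM of the 3 E1 genes, OGDHL rose from a mean of 12.6% in the vehicle controls to 20.1% in the enzalutamide controls. With guide 1 that share was 7.35% in vehicle and 7.13% in enzalutamide, and with guide 2 in enzalutamide it was 11.1%.

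With guide 1, enzalutamide did not change OGDHL past the threshold. Its log2 change was 0.16 as deposited (95% interval -0.10 to 0.42, limma adjusted p = 0.31) and 0.028 after rescaling (limma adjusted p = 0.84). The difference between that response and the control response was itself tested as an interaction of guide and drug. It was -0.31 as deposited (95% interval -0.68 to 0.05, limma adjusted p = 0.21, 6.95% of genes called) and -0.57 after rescaling (limma adjusted p = 0.0063, 26.8% called). With the MT- rows kept it was also called under median-of-ratios scaling (-0.46) and after quantiles were normalized (-0.47), while array weights turned it to 0.024 (adjusted p = 0.92). Without guide 1 vehicle replicate 3 the enzalutamide change of OGDHL in guide 1 was 0.34 as deposited (adjusted p = 0.0019) and 0.17 rescaled (adjusted p = 0.036), while with replicate 3 as the only library of its group it was -0.22 and -0.25. For guide 2, enzalutamide lowered OGDHL relative to the libraries labelled guide 2 in vehicle (log2 -0.55, limma adjusted p = 8.8e-04), where 59.5% of genes were called. The interaction, which also rests on those libraries, was -1.03 (limma adjusted p = 1.3e-04, 43.6% of genes called).

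OGDH, the main E1 of the 2-oxoglutarate complex, was more abundant than OGDHL in every library. It was at 10.9, 11.1 and 10.8 TPM in the vehicle controls, 11.4, 8.23 and 9.27 in the enzalutamide controls, 9.75, 9.38 and 8.75 with guide 1 in enzalutamide, and 10.6, 9.19 and 10.4 with guide 2 in enzalutamide. As deposited the 3 enzalutamide groups overlapped one another, and the vehicle controls were above both guides in enzalutamide. On rescaled TPM guide 2 in enzalutamide, at 24.7, 24.4 and 25.1, overlapped the vehicle controls. On that scale the enzalutamide controls were at 23.0, 20.7 and 21.5, and guide 1 in enzalutamide was at 23.6, 22.2 and 22.1. The share of all genes in which guide 2 lay apart from these groups is not given on that scale, so these levels are only listed. Both guide changes in enzalutamide were small: -0.038 with guide 1 (95% interval -0.40 to 0.33, limma adjusted p = 0.95) and 0.064 with guide 2 (-0.30 to 0.43, adjusted p = 0.94). After rescaling they were 0.056 (-0.09 to 0.20, limma adjusted p = 0.60) and 0.18 (0.03 to 0.33, adjusted p = 0.11). With array weights the guide 2 change of OGDH was called (0.15). The intervals after rescaling thus allow a change of OGDH of at most 0.33 in either guide, while OGDHL fell by 1.31 and 0.71 in the same libraries. In control cells the enzalutamide change of OGDH was -0.18 (limma adjusted p = 0.53), and -0.14 after rescaling (adjusted p = 0.11).

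In vehicle, OGDH with guide 1 was at 5.06, 6.96 and 10.6 TPM, an order that ran opposite to the MT- share of the same libraries. As deposited, 4 of the 5 subunit genes were called lower there and none higher, beside 57.5% of all genes called lower: OGDH at -0.54 (limma adjusted p = 0.021), DHTKD1 at -0.41 (adjusted p = 0.025), DLST at -0.74 (adjusted p = 0.018) and OGDHL as above. After rescaling OGDH was at 19.3, 23.1 and 24.8 against 23.6, 25.0 and 23.6 in the controls, and its change was -0.10 (95% interval -0.25 to 0.04, limma adjusted p = 0.24). DHTKD1 was at -0.052 on that scale (limma adjusted p = 0.50). As deposited, each of the OGDH and DHTKD1 calls was lost in 5 of the 18 fits that left out 1 library, namely without any vehicle control or without guide 1 vehicle replicate 1 or 2; without replicate 1 the changes were -0.31 (adjusted p = 0.14) for OGDH and -0.24 (adjusted p = 0.17) for DHTKD1. In a fit of only the groups compared the OGDH, DHTKD1 and DLST calls were lost too, each with an adjusted p of 0.15. The libraries labelled guide 2 in vehicle held the most OGDH, 14.7, 14.5 and 12.3 TPM, a change of 0.31 (limma adjusted p = 0.13) as deposited and 0.33 (adjusted p = 5.3e-04) after rescaling, beside 74.9% of genes called on that scale.

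DHTKD1, the 2-oxoadipate E1, ranged from 1.93 to 4.50 TPM and from 7.36 to 10.2 rescaled TPM. It was at 4.01, 3.97 and 3.76 TPM in the vehicle controls and at 4.50, 3.30 and 3.72 in the enzalutamide controls, groups that overlapped. With guide 1 in enzalutamide it was at 10.2, 9.73 and 9.57 rescaled TPM against 9.07, 8.28 and 8.62 in the controls, with no overlap, as for 49.6% of all genes. That 1.14-fold difference (log2 0.17, 95% interval 0.04 to 0.29) was called after rescaling (limma adjusted p = 0.039) and not as deposited (0.066, adjusted p = 0.87). The call was lost in 8 of the 18 fits that left out 1 library, namely vehicle control 1, enzalutamide control 2 or 3, any guide 1 library in enzalutamide, or guide 2 enzalutamide library 1 or 2. In those fits it was 0.14 to 0.18, with adjusted p from 0.051 to 0.14. It was also lost without the 3 libraries labelled guide 2 in vehicle (0.17, adjusted p = 0.052) and with the replicate number as a block (0.17, adjusted p = 0.061). Guide 2 in enzalutamide was at 9.56, 9.58 and 9.91 rescaled TPM. The share of all genes in which guide 2 lay apart from the enzalutamide controls is not given on that scale, so these levels are only listed. The rescaled DHTKD1 change with guide 2 in enzalutamide was not called. That change was 0.12 to 0.18 in the 18 fits that left out 1 library, 1 of which called it. With array weights DHTKD1 was called on the deposited values with guide 1 and guide 2 in enzalutamide (each 0.11). Relative to OGDH within a library, DHTKD1 stood at 0.348 to 0.367 in the vehicle controls and 0.362 to 0.381 with guide 1 in vehicle, which overlapped. It stood at 0.394 to 0.401 in the enzalutamide controls, at 0.388 to 0.394 with guide 2 in enzalutamide, just under them, and at 0.433 to 0.439 with guide 1 in enzalutamide. The libraries labelled guide 2 in vehicle were lowest, at 0.282 to 0.283. These ratios were not tested.

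**Figure D3:**
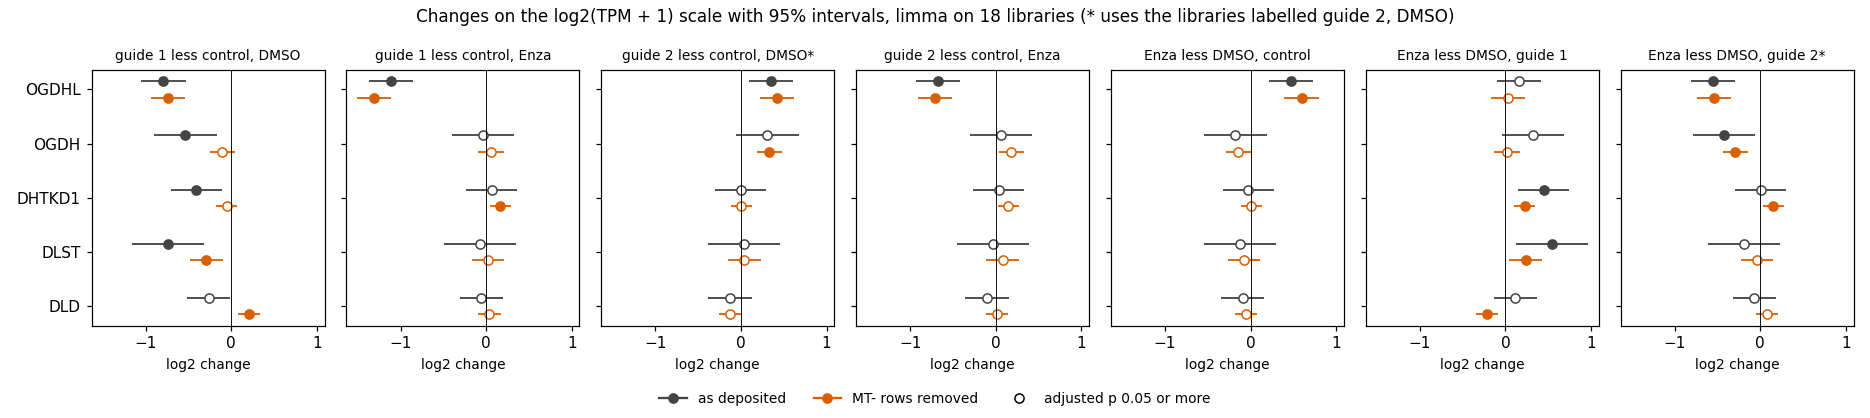
Log2 changes of the 5 genes with 95% intervals from limma, 1 panel per comparison, as deposited and with MT- rows removed. OGDHL lies left of 0 for guide 1 in both treatments and for guide 2 in enzalutamide, and right of 0 for enzalutamide in the controls; DLD in guide 1 in vehicle lies on opposite sides of 0 on the 2 scales.

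DLST, the succinyltransferase E2, and DLD, the dihydrolipoamide dehydrogenase E3, were the most abundant of the 5, close to 20 TPM. In the vehicle controls DLST was at 20.9, 20.9 and 20.9 TPM and DLD at 20.4, 20.1 and 19.4, and in the enzalutamide controls DLST was at 22.4, 16.98 and 18.3 and DLD at 21.4, 16.3 and 18.6. In enzalutamide neither gene was called with either guide. The DLST change was -0.074 with guide 1 (95% interval -0.50 to 0.35, limma adjusted p = 0.91) and -0.035 with guide 2 (adjusted p = 0.97), and the DLD changes were -0.057 (adjusted p = 0.87) and -0.10 (adjusted p = 0.86). After rescaling all 4 were positive and between 0.0090 and 0.079, with limma adjusted p from 0.66 to 0.95. With array weights 3 of those 4 were called, DLD at -0.064 (adjusted p = 0.019) and -0.050 (adjusted p = 0.022) and DLST with guide 2, which turned to 0.049 (adjusted p = 0.034). In control cells enzalutamide changed neither gene past the threshold (DLST -0.12, limma adjusted p = 0.74; DLD -0.094, adjusted p = 0.65).

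In vehicle with guide 1, DLST and DLD parted. DLST was at 8.16, 10.98 and 19.4 TPM, and DLD at 14.5, 15.7 and 19.5 TPM. After rescaling DLST was lower, at 31.1, 36.5 and 45.5 against 45.1, 46.8 and 45.7 in the controls, with replicate 3 overlapping them. DLD was higher, at 55.4, 52.1 and 45.7 against 44.0, 45.2 and 42.5, with no overlap, as for 30.8% of all genes. Both were called on that scale, DLST at -0.29 (95% interval -0.48 to -0.10, limma adjusted p = 0.030) and DLD at 0.21 (0.08 to 0.34, adjusted p = 0.026), while as deposited DLST was at -0.74 (adjusted p = 0.018) and DLD at -0.27 (adjusted p = 0.065). With replicate 3 as the only library of that group the rescaled changes were -0.011 for DLST and 0.056 for DLD. Without replicate 1 they were -0.17 (adjusted p = 0.13) and 0.15 (adjusted p = 0.12), and the calls were lost in 5 of 18 such fits for DLST (also without any vehicle control or guide 1 replicate 2) and 4 of 18 for DLD (also without vehicle control 1 or 3 or guide 1 replicate 2). As deposited the DLST call was lost in 4 of 18, without vehicle control 1 or 3 or guide 1 replicate 1 or 2, and without guide 1 replicate 1 it was -0.48 (adjusted p = 0.12). DLSTP1 was at -0.53 as deposited (limma adjusted p = 0.022) and -0.083 rescaled (adjusted p = 0.42).

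The ratio of DLST to DLD within a library needs no scaling. It was 1.02, 1.03 and 1.07 in the vehicle controls and 0.562, 0.701 and 0.996 with guide 1 in vehicle. It was lowest in the 2 libraries with the highest MT- shares of the series, 73.8% and 69.9%, and in the third library of the group, at a share of 57.2%, it was close to the controls. The libraries labelled guide 2 in vehicle had ratios of 1.21, 1.21 and 1.09, the first pair being the highest of the series. The other 9 libraries, all in enzalutamide, lay between 0.957 and 1.09. The part of the MT- share in these differences was not tested.

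**Figure D4:**
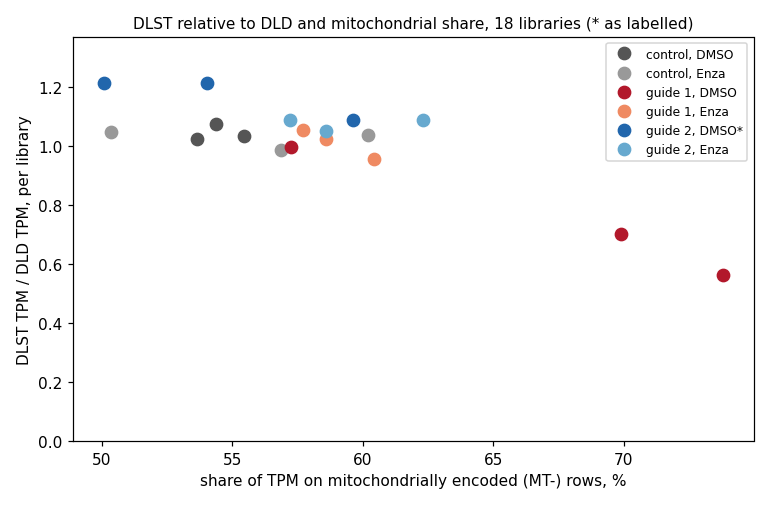
DLST TPM divided by DLD TPM in each of the 18 libraries, against the share of TPM on MT- rows in percent; colours mark the groups. The lowest ratios, 0.562 and 0.701, belong to the guide 1 vehicle libraries with MT- shares of 73.8% and 69.9%.

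Within the guide 1 cells enzalutamide was accompanied by higher DHTKD1 (0.45, limma adjusted p = 0.027; 0.23 rescaled, adjusted p = 0.0053) and DLST (0.54, adjusted p = 0.049; 0.24 rescaled, adjusted p = 0.045), so that 2 of the 5 genes were called higher and none lower as deposited, where 29.9% of all genes were called and 26.3% were called higher. DLD fell by 0.22 after rescaling (limma adjusted p = 0.0089, 42.8% of genes called) and was at 0.11 as deposited (adjusted p = 0.45). The vehicle side of these differences holds the 2 libraries of highest MT- share. With guide 1 vehicle replicate 3 alone on that side the changes turned for DLST (-0.099; -0.045 rescaled) and were 0.058 for DHTKD1 and -0.12 for DLD as deposited. The DLST call was also lost in 15 of 18 fits that left out 1 library as deposited, all but those without replicate 3 of guide 1 or of labelled guide 2 in vehicle or enzalutamide control 1. It was lost in 17 of 18 rescaled, all but the one without guide 1 vehicle replicate 3, and was 0.29 and 0.11 on the 2 scales without guide 1 vehicle replicate 1. With the replicate number as a block it was lost on both scales (0.54, adjusted p = 0.069; 0.24 rescaled, adjusted p = 0.060), as it was without the 3 libraries labelled guide 2 in vehicle (adjusted p = 0.061 and 0.064). The DHTKD1 call as deposited was lost without guide 1 vehicle replicate 1 (0.28, adjusted p = 0.16) or 2, or guide 1 enzalutamide replicate 1 or 2. In a fit of only the groups compared both calls were lost (adjusted p = 0.24 for DHTKD1 and 0.28 for DLST). Against the libraries labelled guide 2 in vehicle, enzalutamide with guide 2 lowered OGDH (-0.42, limma adjusted p = 0.043) and OGDHL, so that 2 of the 5 were called lower, beside 48.3% of all genes called lower. The OGDH call was lost in 13 of 18 fits that left out 1 library (-0.46 to -0.37), all but those without guide 1 vehicle replicate 1 or 3, labelled guide 2 vehicle replicate 3 or enzalutamide control 1 or 2, and with the replicate block (-0.42, adjusted p = 0.060). After rescaling, the OGDH change was -0.31 to -0.27 in such fits and called in all 18. DHTKD1 was 0.13 to 0.17 there and called higher in 15 of 18. The median of all genes was -0.20 on that scale, and the share of all genes called is not given.

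Across the 18 libraries, on the rescaled log2 values, OGDHL and OGDH had a Pearson r of 0.42, and 0.085 over the 15 libraries without those labelled guide 2 in vehicle. OGDH and DLST had 0.65 and 0.74, and DLST and DLD -0.85 and -0.84. The libraries share guides, treatments and the MT- share, so these are descriptions of this design. The genes whose levels were most like OGDHL were ZDHHC8, a palmitoyltransferase (r = 0.93), NLGN2, a synaptic adhesion protein (0.90), and RPL10L, a ribosomal protein paralog (0.90). Over the 15 libraries their r was 0.93, 0.88 and 0.89, which placed ZDHHC8 at rank 2, NLGN2 at rank 24 and RPL10L at rank 15. For OGDH they were CC2D1A, STXBP2 and TECPR1 (each 0.97 over 18 libraries, and 0.89 to 0.91 over the 15), and for DHTKD1 they were DHRS4 (0.90), AGO1 (0.89) and ZG16B (0.88). For DLST they were SNX17 (0.98), AAMP (0.98) and ANTKMT (0.97), and for DLD they were TRIQK (0.98), LSM14A (0.98) and MSANTD4 (0.97). Over the 15 libraries these 12 genes stood at ranks from 2 (SNX17) to 60 (ANTKMT) in the order of likeness.

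Genes near OGDHL on chromosome 10 were followed because they lie beside the targeted locus. Within 500 kb there were 24 annotated genes, of which 14 were in the table and 5 were tested as deposited: ERCC6, PARG, TIMM23B, AGAP6 and WASHC2A. None of the 5 was called with guide 1 or guide 2 in enzalutamide as deposited. After rescaling WASHC2A was called with guide 1 in enzalutamide at -0.13 (limma adjusted p = 0.042), far smaller than the OGDHL change of -1.31 in the same libraries. In vehicle with guide 1, TIMM23B (-0.28, limma adjusted p = 0.022) and WASHC2A (-0.29, adjusted p = 0.043) were called as deposited, near the median of -0.32 of all genes, and neither after rescaling. In the libraries labelled guide 2 in vehicle 4 of the 5 were called, beside 59.0% of all genes called in either direction. Among the 4 were ERCC6 (0.58) and WASHC2A (0.55), where the median of all genes was 0.18. The share of all genes called higher alone is not given, so the direction of these calls has no background here.

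Partners of the complexes were taken as 9 lists holding 77 distinct genes, of which 66 were tested as deposited and 67 after rescaling. With the OGDHL guides in enzalutamide few of them were called as deposited: 1 higher and 1 lower of 66 with guide 1 (3.03%, beside 7.07% of all genes) and 1 lower with guide 2 (1.52%, beside 1.25%). The adapter MRPS36 ranged from 3.21 to 5.90 TPM. As deposited its change with guide 1 in enzalutamide was 0.14 and not called, and after rescaling it was 0.24 (limma adjusted p = 0.0022). After rescaling 31 of 67 partner genes (46.3%) were called with guide 1 in enzalutamide, 23 higher and 8 lower, beside 30.6% of all genes. They included 8 higher and 1 lower of 13 genes for making and attaching lipoate, the cofactor of DLST, with a list median of 0.16, 2 higher of 3 genes of thiamine diphosphate supply, and 3 higher of 14 further TCA cycle genes. The pyruvate dehydrogenase list had 2 higher and 4 lower of 10, and the genes that make or use 2-oxoglutarate 4 higher and 2 lower of 16. The lysine degradation list had 2 higher and 1 lower of 4. The 30.6% counts calls in either direction. The share of all genes called higher alone is not given for this comparison, so the directions within the lists have no background here. As deposited none of the lipoate, thiamine and TCA lists had a call in that comparison, with medians of 0.062, 0.18 and -0.076. With guide 2 in enzalutamide 5 of 67 were called higher and 4 lower after rescaling (13.4%, beside 14.0% of all genes).

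AADAT, the aminotransferase that makes 2-oxoadipate, the substrate of DHTKD1, and that uses 2-oxoglutarate as amino acceptor, was the partner gene that changed most with the guides in enzalutamide. It was at 6.26, 6.47 and 6.39 TPM in the vehicle controls and 3.88, 3.01 and 3.32 TPM in the enzalutamide controls. Guide 1 cells held 4.56, 5.12 and 6.59 TPM with vehicle, and with enzalutamide 22.3, 21.3 and 21.7 TPM. With guide 2 in enzalutamide it was at 1.96, 1.83 and 1.99 TPM, and in the libraries labelled guide 2 in vehicle at 2.29, 2.27 and 1.97 TPM. The guides thus lay on opposite sides of the enzalutamide controls without overlap. Guide 1 was 6.40-fold higher (log2 2.38, SE 0.109, limma adjusted p = 8.8e-11) and guide 2 was 1.76-fold lower (log2 -0.58, adjusted p = 0.0094). The difference between the guides was -2.96 (limma adjusted p = 2.5e-12), and both guide changes were compared with the same 3 control libraries. In the control cells enzalutamide lowered AADAT 1.87-fold (-0.75, limma adjusted p = 5.0e-05), in guide 1 cells it went with a rise (1.84, adjusted p = 1.2e-09), and the interaction was 2.59 (adjusted p = 6.0e-09). The AADAT calls in guide 1 and in the controls held in all 18 fits that left out 1 library, and the guide 2 call was lost without enzalutamide control 3 (-0.60, adjusted p = 0.052) or guide 2 enzalutamide library 2 (-0.56, adjusted p = 0.064). After rescaling the guide changes of AADAT were 2.64 and -0.60. The level of the 2-oxoadipate E1, DHTKD1, differed by at most 1.19-fold between any 2 rescaled group means.

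**Figure D5:**
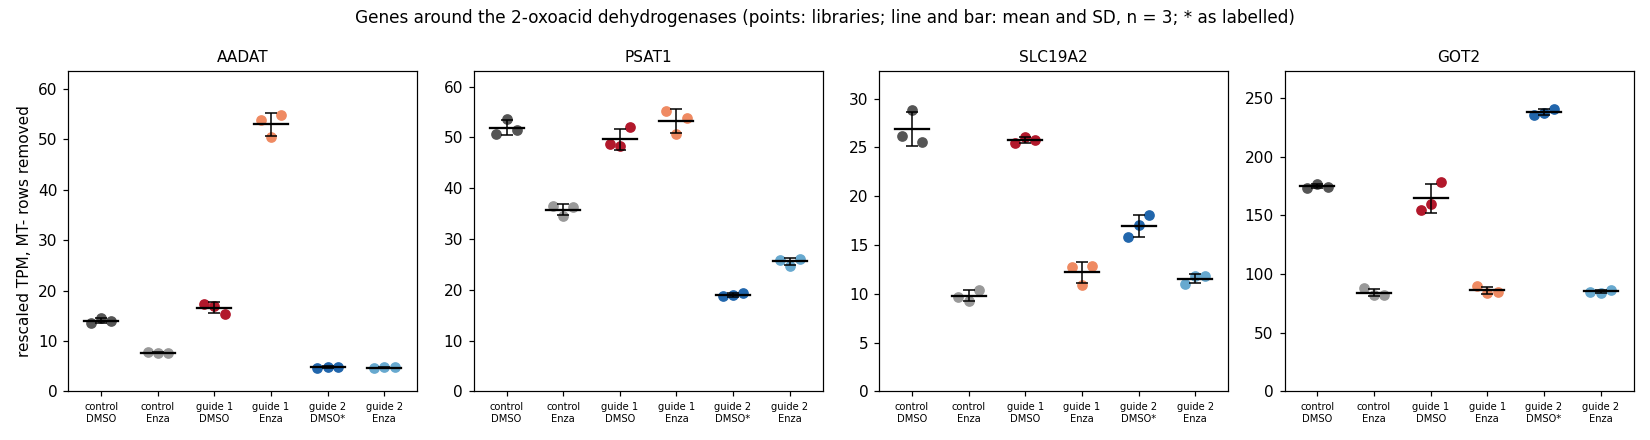
Rescaled TPM, with MT- rows removed, of genes around the 2-oxoacid dehydrogenases by group; points are libraries, lines with bars the mean and SD of 3. AADAT is at 50.4 to 54.7 in the 3 guide 1 libraries in enzalutamide and at 4.58 to 17.4 in the other 15.

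In lysine degradation AASS, which starts the mitochondrial route, was the other partner gene called with guide 1 in enzalutamide as deposited. It was at 0.617 ± 0.035 TPM (SD, n = 3) in the vehicle controls, 1.15 ± 0.143 in the enzalutamide controls and 0.789 ± 0.040 with guide 1 in enzalutamide. The changes were 0.41 for enzalutamide in controls (limma adjusted p = 4.5e-05) and -0.26 for guide 1 in enzalutamide (adjusted p = 0.0092), the latter lost without guide 1 replicate 2 (-0.24, adjusted p = 0.054). AASS lay near the 1 TPM filter. It fell short of that filter in a fit of only the groups compared, so neither change was tested there. PSAT1, the serine pathway aminotransferase that makes 2-oxoglutarate from glutamate, fell with enzalutamide in control cells (-0.56, limma adjusted p = 0.015), a call lost without vehicle control 2 (-0.55) or enzalutamide control 2 (-0.47, adjusted p = 0.074). The guides differed in PSAT1 in enzalutamide, guide 2 being lower (-1.004, limma adjusted p = 2.4e-04). Against the shared controls its rescaled changes were 0.56 (adjusted p = 1.5e-07) with guide 1 and -0.47 (adjusted p = 3.8e-06) with guide 2.

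Enzalutamide in control cells, which raised OGDHL, called 2 partner genes higher and 13 lower of 66 as deposited (22.7%, beside 20.8% of all genes), and 8 higher and 31 lower of 67 after rescaling (58.2%, beside 47.9%). GOT2, the mitochondrial aspartate aminotransferase, fell from 79.7 ± 0.777 to 37.4 ± 5.73 TPM (log2 -1.08, limma adjusted p = 1.5e-04). SLC19A2, a thiamine transporter, fell from 12.2 ± 0.609 to 4.33 ± 0.580 TPM (-1.32, adjusted p = 5.7e-07), and PPM1K, the phosphatase of the branched-chain complex, from 11.8 ± 0.413 to 3.63 ± 0.570 TPM (-1.47, adjusted p = 4.9e-08). In each of these 3 genes the control libraries of the 2 treatments did not overlap, as for 46.2% of all genes, and the call held in all 18 fits that left out 1 library. DLAT, the E2 of pyruvate dehydrogenase (-0.74, limma adjusted p = 3.4e-04), and BOLA3, an iron-sulfur factor needed for lipoate synthesis (-0.67, adjusted p = 8.7e-04), also fell. By list, as deposited, 1 gene rose and 2 fell of 10 in the pyruvate dehydrogenase list, 0 and 2 of 4 in the branched-chain list, 0 and 3 of 13 in the lipoate list, 0 and 1 of 13 in the TCA list and 0 and 4 of 16 among genes that make or use 2-oxoglutarate. None of the 3 glycine cleavage genes was called. Of the 18 fits that left out 1 library, the PDK1 call was lost in 15, and those of PDK3, DBT, GOT1, ISCA1, LIAS and SUCLG1 in 5 each. Leaving out any 1 of the 3 vehicle controls, or enzalutamide control 3, ended all 7 calls. Enzalutamide control 2 ended them too, except for PDK3, which was lost without control 1. After rescaling all 7 held in all 18 fits.

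In vehicle with guide 1, 51 of 66 partner genes (77.3%, beside 57.8% of all genes) were called lower as deposited and none higher. After rescaling 12 were called higher and 4 lower of 67 (23.9%, beside 32.2% of all genes). The MT- share was higher in these libraries, as given above, and its part in the calls of the partner genes was not tested.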

How the data were processed

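RNA was extracted with RNeasy, made into stranded KAPA mRNA HyperPrep libraries and sequenced as paired 50-base reads, per the labels' protocols. STAR and GRCh38 are named, without a role or version, in the submitters' processing notes; neither a counter nor gene models are named in the sources used here. The values are TPM per gene, computed and deposited by the authors. TPM keeps no depth, so the number of reads behind a value is unknown. Levels were compared as deposited and after MT- rows were removed and the rest rescaled to the former total.

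The members and lists were chosen with earlier results of these data known. limma 3.58.1 in R 4.3.3 was fitted with a trended prior to log2(TPM + 1), computed here from the deposited values, of 18 libraries, with 1 mean per group and Benjamini-Hochberg adjustment over all genes with at least 1 TPM in at least 3 libraries. The script was tested on simulated data. The OGDHL to OGDH ratio was tested by exact two-sided permutation within treatments (scipy 1.17.1). The text names the 5 genes, up to 4 called genes per list and comparison, the 3 genes most like each member, genes within 500 kb of OGDHL, and DLSTP1. Sequences were read from the GRCh38 reference with GENCODE release 29, which may not be the authors' annotation. Alternatives were pseudocounts, filters, other scalings, array weights, the replicate block, other denominators and leaving out each library. Those without the libraries labelled guide 2 in vehicle, and with guide 1 vehicle replicate 3 alone, were added after seeing the data.

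Same-numbered libraries were checked for pairing by the correlation of their deviations from the group means. Only guide 1 and the controls in enzalutamide had every correlation over 0.1 (0.25, 0.11 and 0.20) as deposited, and after MT- rows were removed they were 0.11, 0.05 and 0.09.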

Additional observations from a re-analysis of the deposited data

Results flagged for a closer look

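The enzalutamide response of OGDHL differed between guide 2 and the controls by a test of the difference itself (limma interaction -1.03, adjusted p = 1.3e-04, and -1.13 with MT- rows removed). The enzalutamide change was 0.47 in the controls and -0.55 with guide 2, and it rests on the libraries labelled guide 2 in vehicle, in which OGDHL went against the label. The OGDHL response also differed between guide 1 and the controls with MT- rows removed (interaction -0.57, limma adjusted p = 0.0063), and as deposited the difference was not called (-0.31) and turned to 0.024 with array weights. The AADAT response differed between guide 1 and the controls on both scales, with an interaction of 2.59 as deposited and 2.41 with MT- rows removed. AADAT rose in the guide 1 cells with enzalutamide and fell in the control cells.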

How the results depend on the processing

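Values are log2 changes. The OGDHL fall with guide 1 in enzalutamide and its enzalutamide rise in controls kept their direction under every alternative run. With MT- rows removed, the direction turned for DHTKD1 (enzalutamide in controls 0.0086, labelled guide 2 in vehicle 0.0046), DLD (enzalutamide in guide 1 -0.22 and in guide 2 0.082, guide 1 in vehicle 0.21, guide 1 and guide 2 in enzalutamide 0.039 and 0.0090), DLST (guide 1 and guide 2 in enzalutamide 0.021 and 0.079) and OGDH (guide 1 in enzalutamide 0.056), and the OGDHL interaction of guide 1 passed (-0.57). The share of all genes called moved by over 1.5 times between the scales for guide 1 in vehicle (57.8% to 32.2%) and in enzalutamide (7.07% to 30.6%), guide 2 in enzalutamide (1.25% to 14.0%), enzalutamide in controls (20.8% to 47.9%), the guide 1 interaction (6.95% to 26.8%) and guide 2 against guide 1 in enzalutamide (12.9% to 41.0%). Median-of-ratios scaling gave DLD -0.20, 0.36, 0.18 and 0.053 (enzalutamide in guide 1 and guide 2, guide 1 in vehicle and in enzalutamide), DLST 0.25, 0.036, -0.30 and 0.048 (enzalutamide in guide 2, guide 1 in enzalutamide, guide 2 in vehicle and in enzalutamide), OGDH 0.067 (guide 1 in enzalutamide) and -0.0092 (guide 2 in vehicle), and OGDHL 0.099 (guide 2 in vehicle, adjusted p = 0.14) and -0.46 (interaction of guide 1, now called). Quantile normalization gave DHTKD1 0.011 (enzalutamide in controls), DLD -0.21, 0.34, 0.23, 0.019 and 0.0096 (as for the scaling before, then guide 2 in enzalutamide), DLST 0.23, 0.0091, -0.19 and 0.080, OGDH 0.022 (guide 1 in enzalutamide), and OGDHL 0.078 (guide 2 in vehicle, adjusted p = 0.20) and -0.47 (interaction of guide 1, called). Array weights gave DHTKD1 -0.0050 (enzalutamide in guide 2) and 0.051 (guide 2 in vehicle), DLST 0.049 (guide 2 in enzalutamide), OGDH 0.011 (guide 1 in enzalutamide), and OGDHL 0.44 (enzalutamide in guide 1, adjusted p = 0.047) and 0.024 (interaction of guide 1, reversed). Array weights also added calls as deposited, in 5 of 7 results for DLD, 4 for OGDH, 3 for DHTKD1 and 3 for DLST, beside the DLST change that turned. Without a turn in direction, median-of-ratios scaling added calls in 4 of 7 results for DHTKD1, 2 for OGDH and 1 for DLD. It ended 1 call for DHTKD1 and 1 for OGDH. Quantile normalization likewise added 3 calls for DHTKD1, 1 for OGDH and 1 for DLD, and ended 1 for DHTKD1 and 2 for OGDH. OGDHL with guide 1 in vehicle missed the threshold in a fit of only the groups compared (-0.79, adjusted p = 0.15), where DHTKD1 lost 2 calls, DLST 2 and OGDH 1, and a pseudocount of 0.1 ended the OGDHL calls of enzalutamide in controls (0.62, adjusted p = 0.052) and of guide 2 in vehicle (0.47, adjusted p = 0.074). The enzalutamide change of the ratio in guide 1 turned with DLST as denominator (-0.20) and with the geometric mean of the other 4 genes (-0.026). With guide 1 vehicle replicate 3 as the only library of its group, which is then assumed to vary like the other groups, OGDHL was -0.42 (guide 1 in vehicle, not called), -0.22 (enzalutamide in guide 1; -0.25 with MT- rows removed) and -0.69 (interaction of guide 1, called). In that fit the enzalutamide change in guide 1 turned for DLD (-0.12), DLST (-0.099; -0.045 with MT- rows removed) and OGDH (-0.17; -0.13), and with MT- rows removed guide 1 in vehicle turned for DHTKD1 (0.057) and OGDH (0.043). The cause of these changes was not tested.

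Leaving out 1 library at a time gave OGDHL -0.98 to -0.66 (guide 1 in vehicle), 0.29 to 0.42 (guide 2 in vehicle), -0.71 to -0.61 (guide 2 in enzalutamide), 0.022 to 0.34 (enzalutamide in guide 1; -0.085 to 0.17 with MT- rows removed) and 0.39 to 0.46 (guide 2 against guide 1 in enzalutamide), and -0.035 to 0.15 for the enzalutamide change of the ratio in guide 1. The range crossed 0 for DHTKD1 (guide 1 in enzalutamide -0.016 to 0.16, guide 2 in vehicle -0.038 to 0.064, guide 2 in enzalutamide -0.048 to 0.13, enzalutamide in controls -0.13 to 0.053 and in guide 2 -0.059 to 0.055), DLD (guide 1 in enzalutamide -0.15 to 0.036), DLST (guide 1 in enzalutamide -0.16 to 0.035, guide 2 in vehicle -0.036 to 0.13, guide 2 in enzalutamide -0.12 to 0.074) and OGDH (guide 1 in enzalutamide -0.14 to 0.079, guide 2 -0.033 to 0.18). With MT- rows removed it crossed 0 for DHTKD1 (guide 1 in vehicle -0.11 to 0.021, guide 2 in vehicle -0.023 to 0.027, enzalutamide in controls -0.022 to 0.037), DLST (guide 1 in enzalutamide -0.00048 to 0.048), DLD (guide 2 in enzalutamide -0.014 to 0.027) and OGDH (enzalutamide in guide 1 -0.080 to 0.093). Without the 3 libraries labelled guide 2 in vehicle the enzalutamide change of DLST in guide 1 lost its call on both scales (0.54 and 0.24), as did PDK1 for enzalutamide in controls (-0.38). The filter at 5 TPM left OGDHL, DHTKD1, AASS and LIAS untested, and a fit of only the groups compared left AASS untested.

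With the replicate number as a block, 56 of 60 results as deposited kept their call. PDK1 (-0.38) and SUCLG1 (-0.39) for enzalutamide in controls, DLST for enzalutamide in guide 1 (0.54) and OGDH for enzalutamide in guide 2 (-0.42) lost it; no OGDHL call changed. With the block and MT- rows removed, 58 kept it, and DHTKD1 for guide 1 in enzalutamide (0.17) and DLST for enzalutamide in guide 1 (0.24) lost it.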
